A study of Mus musculus with 6 samples.

Results

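Pdk1, Pdk3, Pdk4, Ppargc1a and Idh2 are genes that bear on how mitochondria use pyruvate and other fuel. Their 5 transcripts were followed in TM4 cells, an immortal mouse cell line with a Sertoli cell origin; Sertoli cells are the supporting cells of the seminiferous tubule. The 5 genes were picked from a table in which the authors list the probes they called changed, where each has 1 probe, out of 1978 genes that could be named from that table. That table was made from the same comparison as the values below. The differences of the 5 genes are therefore a description of how the chosen genes differ. Their limma calls, given below, are not read as a test of them.

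The cells compared were TM4 cells given a mixture of 4 siRNAs (small interfering RNAs) against Gata4, which encodes a GATA-binding factor needed for gonad and heart formation, and TM4 cells transfected with a non-targeting (NT) siRNA. The final siRNA concentration was 0.1 µM and the groups had 3 samples each. Both groups share the transfection reagent and the culture medium with serum, and all samples come from a single cell line. RNA from each sample was read on an Illumina MouseWG-6 v2.0 array, which reports an intensity for 45269 probes. The siRNAs are shown because they are the only difference between the groups that the labels name. Their letters are those of the labels, which do not give the strand, and no part is marked.
Gata4 pool, siRNA 1: agagaauagcuucgaacca
Gata4 pool, siRNA 2: ggauauggguguuccgggu
Gata4 pool, siRNA 3: cugaauaaaucuaagacgc
Gata4 pool, siRNA 4: ggacauaaucaccgcguaa
Non-targeting siRNA: ugguuuacaugucgacuaa

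Pyruvate made from glucose enters the mitochondrion and is turned into acetyl-CoA by the pyruvate dehydrogenase complex, the gate between glycolysis and the tricarboxylic acid cycle. Pyruvate dehydrogenase kinases (PDKs) phosphorylate and switch off this complex, and dedicated phosphatases switch it on again. Sertoli cells are known for converting much of their glucose to lactate, which they pass to germ cells as fuel, and for burning fatty acids themselves.

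The members have separate places in this scheme. Pdk1 encodes a kinase that is induced by hypoxia-inducible factor in many cells. Pdk3 encodes a kinase isoform for which hypoxic induction has also been described. Pdk4 encodes the isoform associated with fasting and fatty acid use, and it is a known target of FOXO factors and of peroxisome proliferator-activated receptors (PPARs). Ppargc1a encodes a coactivator of PPARs and estrogen-related receptors that drives genes of mitochondrial oxidation. Idh2 encodes the mitochondrial isocitrate dehydrogenase that reduces NADP+.

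The promoters of the 5 genes are shown because the genes differ in opposite directions between the groups. Each window holds the 250 bases before a transcription start in RefSeq (GRCm38.p6), and all 5 genes were found in the promoter table. Pdk1 has 2 starts there and the one nearest the gene's 5' end is shown. The other 4 genes have 1 start each, and for 2 of them it is not at the 5' end of the annotated gene: it lies 548128 bases inside the gene for Ppargc1a and 3258 bases inside for Idh2. Capitals mark matches on either strand to ACGTG or GCGTG, the core of the hypoxia response element, to GATAA, the core bound by GATA factors, to GTAAACA, a FOXO site, to AAGGTCA, an estrogen-related receptor site, and to TGACGT, a cyclic AMP response site.
Pdk1, chr2:71872974-71873223, plus strand: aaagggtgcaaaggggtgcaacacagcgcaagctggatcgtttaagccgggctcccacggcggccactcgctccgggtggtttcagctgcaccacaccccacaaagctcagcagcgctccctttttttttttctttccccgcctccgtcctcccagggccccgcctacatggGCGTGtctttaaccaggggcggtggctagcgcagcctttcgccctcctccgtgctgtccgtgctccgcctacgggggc
Pdk3, chrX:93832151-93832400, minus strand: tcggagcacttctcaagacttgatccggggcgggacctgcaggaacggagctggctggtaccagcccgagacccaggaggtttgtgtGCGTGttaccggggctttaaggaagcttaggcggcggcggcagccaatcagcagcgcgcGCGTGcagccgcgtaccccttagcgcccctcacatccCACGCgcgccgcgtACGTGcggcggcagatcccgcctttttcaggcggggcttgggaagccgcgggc
Pdk4, chr6:5496279-5496528, minus strand: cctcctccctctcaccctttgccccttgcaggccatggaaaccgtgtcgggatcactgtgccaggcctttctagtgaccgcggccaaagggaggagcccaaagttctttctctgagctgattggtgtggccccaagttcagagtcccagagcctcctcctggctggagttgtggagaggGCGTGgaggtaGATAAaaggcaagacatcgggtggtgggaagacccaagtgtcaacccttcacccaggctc
Ppargc1a, chr5:51567726-51567975, minus strand: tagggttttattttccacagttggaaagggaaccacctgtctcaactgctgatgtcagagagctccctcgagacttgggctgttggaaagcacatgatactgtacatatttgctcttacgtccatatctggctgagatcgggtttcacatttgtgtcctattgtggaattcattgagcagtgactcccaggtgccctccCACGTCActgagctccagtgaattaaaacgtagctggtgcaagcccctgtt
Idh2, chr7:80115351-80115600, minus strand: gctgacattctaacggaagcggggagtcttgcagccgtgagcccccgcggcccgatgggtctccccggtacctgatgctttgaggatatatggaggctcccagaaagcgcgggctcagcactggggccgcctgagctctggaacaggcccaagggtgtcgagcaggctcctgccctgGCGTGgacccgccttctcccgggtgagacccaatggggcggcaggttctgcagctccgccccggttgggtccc

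The hypoxia core was present in all 5 windows. ACGTG or GCGTG is found in 38.6% of the 32851 promoter windows of this length, so it is a common string. Pdk1 and Idh2 had a single GCGTG, at -78 to -74 and at -73 to -69 from the start. Pdk3 had 4 matches, with ACGTG at -53 to -49 and GCGTG at -163 to -159, at -104 to -100 and, on the opposite strand, at -67 to -63. The 2 genes that were higher in Gata4 siRNA cells, Pdk4 and Ppargc1a, also had a match each. The string thus did not separate the genes by direction.

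A GATA string was found in the Pdk4 window alone, as GATAA at -60 to -56, and 22.6% of all windows hold such a string. The cyclic AMP response string was found in the Ppargc1a window alone, on the opposite strand at -50 to -45, where it overlaps the ACGTG match (6.47% of all windows). FOXO and estrogen-related receptor strings, present in 3.17% and 4.08% of all windows, were found in 0 of the 5. These matches are letters in a short window and say nothing of whether a factor binds there. The windows of Pdk1, Pdk3 and Idh2 were rich in G and C, at 64.0%, 67.6% and 67.2%, against 58.8% for Pdk4, 48.0% for Ppargc1a and a median of 52.4% over all windows.

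The deposited intensities had nearly the same distribution on every array. A noise floor of 17.1 intensity units was set so that 95% of the values below 0 were smaller than it in size, and 17705 to 17737 probes lay above it on an array. Arrays of a group correlated across the 17740 probes tested with a Pearson's r of 0.9872 to 0.9932, and arrays of different groups with 0.9779 to 0.9869. NT array 3 had the lowest array weight, 0.379, against 0.786 to 1.97 on the other arrays. No probe named here carries Gata4, so the level of the targeted gene was not analysed here and does not check the labels. Nothing in the labels says that replicates were separate cultures, and the number of arrays limits the precision of every value.

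The kinase transcripts moved apart: those of Pdk1 and Pdk3 were lower in Gata4 siRNA cells, to 0.681 and 0.596 of the NT level, while that of Pdk4 was 3.24 times the NT level. Ppargc1a was 2.15 times the NT level and Idh2 was at 0.645 of it. These are ratios of group mean intensities over 3 arrays each. In total RNA from a culture, fewer cells carrying a transcript and less of it per cell cannot be told apart.

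Pdk1 had an intensity of 2510, 2335 and 3063 on Gata4 siRNA arrays 1, 2 and 3, against 3831, 3704 and 4071 on NT arrays 1, 2 and 3. The groups did not overlap, and Gata4 siRNA array 3 came nearest to the NT arrays. The means were 2636 ± 380 in Gata4 siRNA cells and 3869 ± 187 in NT siRNA cells (SD, n = 3 each). The log2 difference was -0.56 ± 0.14 (± SE from the limma fit; this and all log2 differences are Gata4 siRNA minus NT siRNA on a log2 scale with 16 added to the background-modelled intensity, which understates the change of dim probes).

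Pdk3 was the steadiest of the 5 within each group. Its intensity was 1626, 1544 and 1522 on the Gata4 siRNA arrays, against 2666, 2668 and 2533 on the NT arrays. The coefficient of variation was 3.5% in Gata4 siRNA cells and 3.0% in NT siRNA cells. All 3 Gata4 siRNA values lay close together and the lowest NT array was 1.56 times the highest Gata4 siRNA array. The log2 difference was -0.74 ± 0.11.

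Pdk4, the kinase of the fasting response, went the other way. Its log2 difference was the largest of the 5 as fitted here, but not with 130 added to each value, where Pdk4 was at 0.67 and Pdk3 at -0.70. Its intensity was 110.8, 176.5 and 168.5 on Gata4 siRNA arrays 1, 2 and 3, against 37.2, 38.6 and 64.9 on NT arrays 1, 2 and 3. The lowest Gata4 siRNA array, array 1, was still 1.71 times the highest NT array, array 3. Pdk4 was dim, and its lowest value was 2.18 times the noise floor, whereas the lowest Pdk3 value was 89.0 times the floor. Its spread was wide in relative terms, with a coefficient of variation of 23.6% in Gata4 siRNA cells and 33.3% in NT siRNA cells. The log2 difference was 1.42 ± 0.22, which corresponds to 2.68-fold on that scale. The size of this difference exceeded that of 99.7% of the 17740 probes tested. Among the named genes, from which Pdk4 was chosen, it exceeded that of 97.9%. The share of named genes was 90.1% for Ppargc1a, 75% for Pdk3, 64.8% for Idh2 and 51.7% for Pdk1.

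Ppargc1a, the coactivator, had an intensity of 169.8, 159.2 and 187.9 in Gata4 siRNA cells, against 61.2, 90.2 and 89.2 in NT siRNA cells. All Gata4 siRNA arrays were higher than all NT arrays, and NT array 1 stood below the other NT arrays. The means were 172.3 ± 14.5 in Gata4 siRNA cells and 80.2 ± 16.5 in NT siRNA cells (SD, n = 3 each). The log2 difference was 0.98 ± 0.16.

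Idh2, the mitochondrial NADP+ enzyme, varied most among the 3 lower genes in Gata4 siRNA cells. Its intensity was 1661, 1073 and 1385 on Gata4 siRNA arrays 1, 2 and 3, against 2087, 2066 and 2228 on the NT arrays. The NT arrays were tight, at a coefficient of variation of 4.2%, and the Gata4 siRNA arrays were not, at 21.4%. The groups did not overlap, and the lowest NT array was 1.24 times the highest Gata4 siRNA array. The log2 difference was -0.65 ± 0.17.

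**Figure D1:**
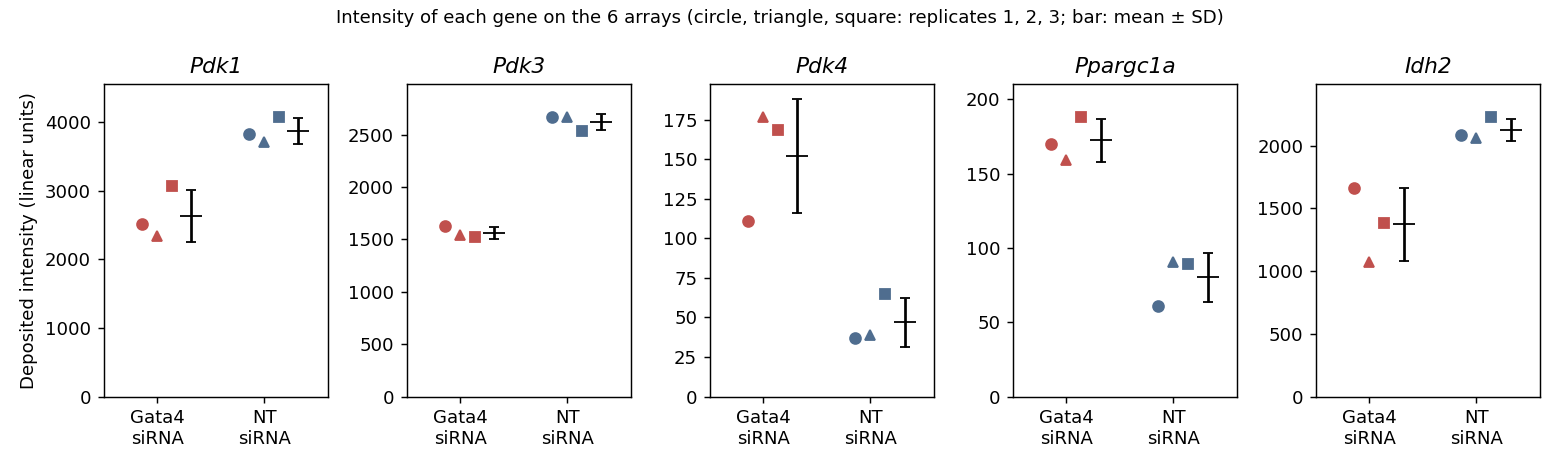
Deposited intensity (linear units, axes from 0) of Pdk1, Pdk3, Pdk4, Ppargc1a and Idh2 on the 3 Gata4 siRNA arrays (red, left) and the 3 NT siRNA arrays (blue, right), with circle, triangle and square for replicates 1, 2 and 3 and the mean with SD beside them. The Gata4 siRNA arrays lie below the NT arrays for Pdk1, Pdk3 and Idh2 and above them for Pdk4 and Ppargc1a.

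Of the 5 genes, 5 passed an adjusted p under 0.05 in limma, 2 higher and 3 lower in Gata4 siRNA cells, where 8.78% of all 17740 probes passed, 4.07% higher and 4.71% lower. The count of 5 did not hold in every fit: 3 passed with a replicate block, with no filter or with values floored at 1, and 1 to 4 passed when 1 array was left out. The lowest count, 1, was without Gata4 siRNA array 2, where the number of probes called was 257, against 1558 with all arrays. Groups did not overlap for 5 of 5, against 33.3% of all probes tested. Nothing is read from either count, because the authors' calls in this comparison chose the genes. Among the 1965 named genes tested, which the authors had all called, 55.0% passed, 25.5% higher and 29.5% lower.

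The genes did not move in step from array to array. On Gata4 siRNA arrays 1, 2 and 3, Pdk4 stood 1.04, 1.64 and 1.58 above its NT mean on the log2 scale, and Ppargc1a 0.97, 0.88 and 1.10 above its own. Array 1, where Pdk4 was lowest among the Gata4 siRNA arrays, was thus not the lowest for Ppargc1a. Idh2 was at -0.35, -0.98 and -0.61 on the same arrays, and Pdk1 at -0.62, -0.72 and -0.33. Array 2 held the lowest value of both, but Pdk3, at -0.68, -0.76 and -0.78, had its lowest on array 3.

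The opposite movement of the kinases was present on every Gata4 siRNA array. Its sign there was fixed, because the groups of these chosen genes did not overlap, and only its size could vary. The log2 gap between Pdk4 and the mean of Pdk1 and Pdk3, each relative to its NT mean, was 1.69, 2.38 and 2.14 on Gata4 siRNA arrays 1, 2 and 3, against -0.22, -0.16 and 0.38 on NT arrays 1, 2 and 3. NT array 3, which had the highest Pdk4 value of its group, was the NT array nearest to the Gata4 siRNA arrays by this measure.

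**Figure D2:**
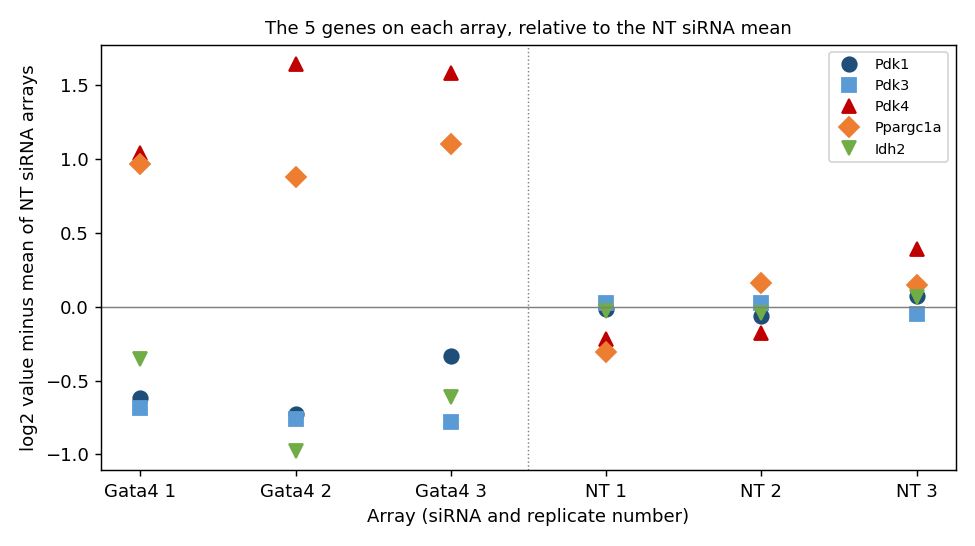
log2 value of each of the 5 genes minus its mean over the NT siRNA arrays, for Gata4 siRNA arrays 1 to 3 (left of the dotted line) and NT arrays 1 to 3 (right); each point is 1 array. Pdk4 and Ppargc1a lie above 0 and Pdk1, Pdk3 and Idh2 below it on every Gata4 siRNA array, with Idh2 ranging from -0.98 to -0.35.

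Pathway lists placed the 5 genes among their neighbours in metabolism. Only genes in the authors' table have a name here, so counts below are shares of genes the authors had already called, and they are not independent evidence of direction. The share to set beside each count below is that of all named genes tested, of which 25.5% passed as higher and 29.5% as lower. The median log2 difference was 0.01 over all probes tested and 0.27 over the named genes. Between 2 and 10 genes of a list were named, and for each of them the groups did not overlap, as for 33.3% of all probes tested.

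Regulators of the pyruvate dehydrogenase complex were represented by 4 of 15 list genes, Pdk1, Pdk3, Pdk4 and Pdp2, of which 1 was higher, 3 were lower and 0 failed the test (median -0.55). Pdp2, a phosphatase that switches the complex on, had an intensity of 230.3 ± 10.9 in Gata4 siRNA cells and 345.4 ± 32.5 in NT siRNA cells (SD, n = 3 each), a log2 difference of -0.55 ± 0.12. A phosphatase of the complex was therefore lower together with the kinases Pdk1 and Pdk3. The subunits of the complex and Pdk2 were not among the named genes and were not analysed here.

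Of 28 list genes in and around the tricarboxylic acid cycle, 5 are reported, all of them already called by the authors. Of these, 4 passed the limma test as lower and 1 did not pass (median -0.71), where 29.5% of all named genes passed as lower; the other 23 have no value here, and nothing is read from the count about the cycle as a whole. Idh1, the cytosolic counterpart of Idh2, had an intensity of 902.6 ± 36.2 in Gata4 siRNA cells and 1531 ± 86 in NT siRNA cells, a log2 difference of -0.75 ± 0.11. Me2, a mitochondrial malic enzyme that makes pyruvate, was lower by a log2 difference of -0.58 ± 0.12. Slc25a1, the mitochondrial citrate carrier, was at -0.71 ± 0.18 and did not pass. Gls2, a mitochondrial enzyme that makes glutamate, was lower by a log2 difference of -0.87 ± 0.13.

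Genes listed with the coactivator Ppargc1a went both ways. Of 34 genes in the list of PGC-1 coactivators, their partners and mitochondrial biogenesis, 6 were named, 2 higher and 4 lower with 0 not passing (median -0.61). The 2 higher genes were Ppargc1a itself and Tfb2m. Tfb2m, a mitochondrial transcription factor, was higher with Ppargc1a, by a log2 difference of 0.53 ± 0.12. Gabpb1, a subunit of nuclear respiratory factor 2, and Rxra, the dimer partner of PPARs, were each lower by a log2 difference of -0.61, with an SE of 0.11 for Gabpb1 and 0.12 for Rxra.

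Foxo1, a forkhead factor known in liver and muscle as an activator of Pdk4, was lower where Pdk4 was higher. Its intensity was 202.8, 202.0 and 198.5 on the Gata4 siRNA arrays, against 469.2, 592.7 and 593.0 on the NT arrays. The Gata4 siRNA values were nearly equal, and the log2 difference was -1.38 ± 0.13. Lpin1, a phosphatidate phosphatase that also acts with Ppargc1a in liver, was at 38.4 ± 3.0 in Gata4 siRNA cells and 110.1 ± 18.1 in NT siRNA cells (SD, n = 3 each), a log2 difference of -1.21 ± 0.14.

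In fatty acid oxidation 3 of 28 list genes were named, 2 higher and 1 not passing (median 0.52). Angptl4, a secreted inhibitor of lipoprotein lipase and, like Pdk4, a known PPAR target, had an intensity of 3655, 4054 and 3520 in Gata4 siRNA cells, against 1567, 1666 and 1603 in NT siRNA cells, a log2 difference of 1.21 ± 0.11. Slc25a20, the carnitine carrier that brings fatty acids into mitochondria, was higher by a log2 difference of 0.52 ± 0.12. Etfdh, which passes electrons from fatty acid oxidation to ubiquinone, was at 0.37 ± 0.12 and did not pass.

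The respiratory chain list had 3 of 33 genes named, and 0 passed the limma test in either direction (median -0.41). Cytochrome c, Cycs, was at 0.34 ± 0.11, the ATP synthase subunit Atp5a1 at -0.41 ± 0.13 and the cytochrome oxidase subunit Cox7a2 at -0.62 ± 0.18 (log2 difference ± SE). In mitochondrial redox defence, besides Idh2, only Prdx5 was named of 13 genes, a peroxidase at -0.52 ± 0.15 that did not pass.

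Upstream of pyruvate, 10 of 31 genes of glucose uptake, glycolysis and lactate were named, with 0 higher, 6 lower and 4 not passing (median -0.69). Of all named genes tested, 25.5% passed as higher and 29.5% as lower. The other genes of this list have no value here, and nothing is read from the count about glycolysis as a whole. Among the brightest, the glucose transporter Slc2a1 was lower by a log2 difference of -0.67 ± 0.12, enolase Eno2 by -0.70 ± 0.15 and lactate dehydrogenase Ldhb by -1.27 ± 0.14. Hexokinase Hk2 was at -0.40 ± 0.11, phosphofructokinase Pfkp at -0.36 ± 0.13 and Pfkm at -0.29 ± 0.12, and these did not pass. The probes of Ldhb and Hk2 bear the symbol of a predicted locus and took their names from the gene number beside it.

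Of the factors that control hypoxia-inducible factor, 3 of 10 were named, with 1 lower and 2 not passing (median -0.51). Vhl, the ubiquitin ligase subunit that marks the factor for destruction, was at 153.5 ± 13.1 in Gata4 siRNA cells and 240.4 ± 13.9 in NT siRNA cells (SD, n = 3 each), a log2 difference of -0.60 ± 0.12. The prolyl hydroxylases Egln1 and Egln3 were at -0.42 ± 0.13 and -0.51 ± 0.14 and did not pass.

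**Figure D3:**
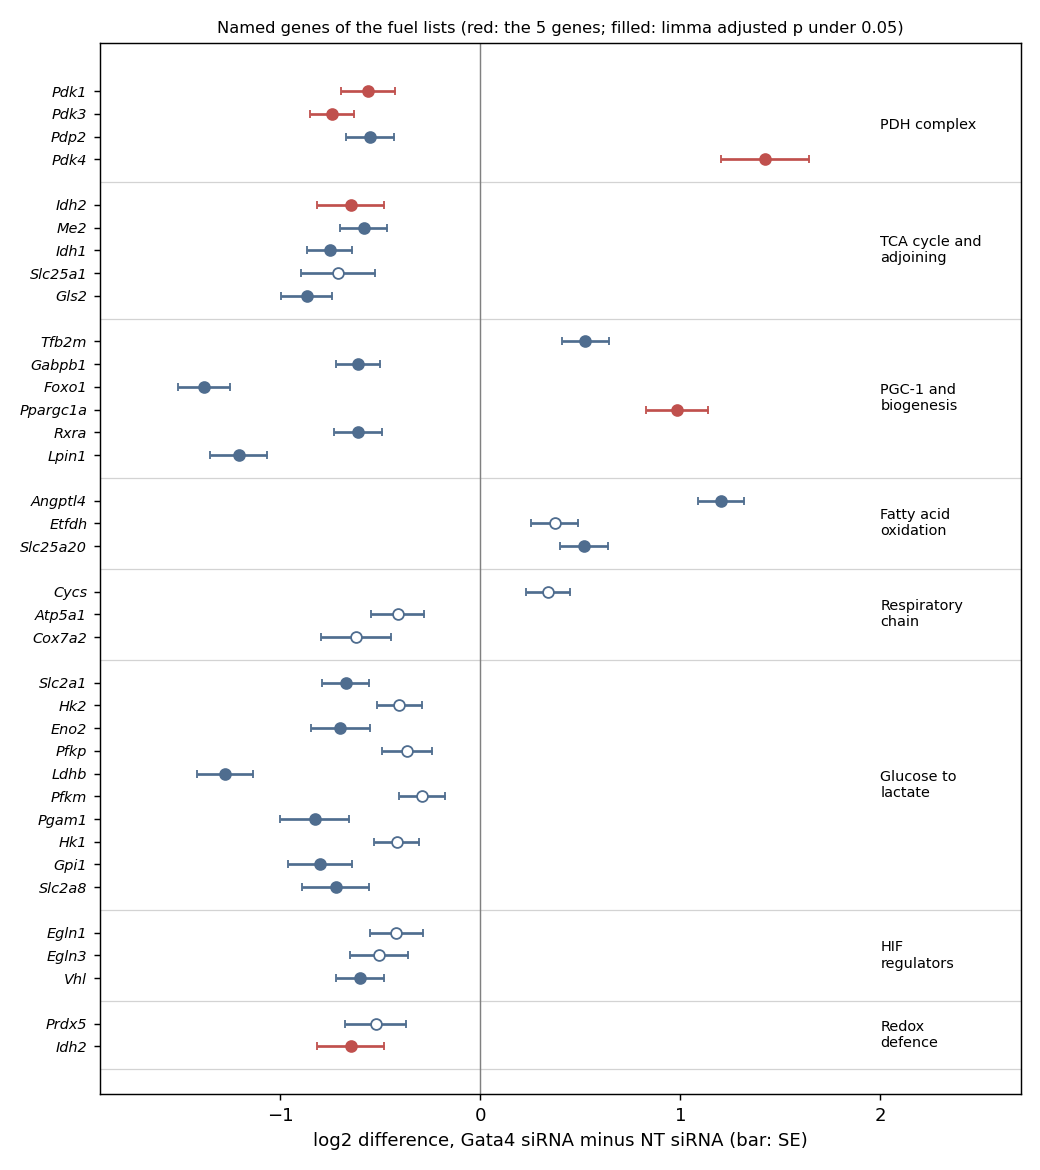
log2 difference (Gata4 siRNA minus NT siRNA, n = 3 each, bars SE) of the genes reported from 8 fuel lists, with the 5 genes in red and filled points for a limma adjusted p under 0.05; Idh2 stands in 2 lists. Pdk4, at 1.42, stands apart from Pdk1, Pdk3 and Pdp2, while the 10 glucose to lactate genes all lie below 0. All genes shown had already been called by the authors.

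Markers bearing on the identity of the cells were looked up in the same way. A marker is named only if the authors called a probe of it changed, so these counts cannot check which cell types are present. Of 17 Sertoli markers 3 were named, with Sox9 higher and Inhbb and Tjp1 lower, and their summed intensity was 2822 to 3012 on the Gata4 siRNA arrays and 2946 to 3343 on the NT arrays. The probe of Inhbb bears the symbol of a predicted locus and took its name from the gene number beside it. Of 9 peritubular myoid and smooth muscle markers 5 were named, 4 of them higher. The sum of the 5 was 20628 to 23031 on the Gata4 siRNA arrays against 14165 to 15656 on the NT arrays. Acta2 alone made up most of it, with a mean of 16891 in Gata4 siRNA cells and 11686 in NT siRNA cells. The authors had already called these markers, so a group difference was built in, and the markers not named were not seen. Cd14 was the single macrophage marker named of 8, at 716.0 to 781.9 on the Gata4 siRNA arrays against 520.2 to 619.0 on the NT arrays. Of the Leydig, germ cell and endothelial markers 0 were named, which says nothing of whether their transcripts were present. No named marker was at 0, and the part of these markers in the differences of the 5 genes was not tested.

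The genes most like each of the 5 were found by the root mean square difference of their log2 values over 6 arrays, each gene centred on its own mean, among 1960 other named genes. Nearest to Pdk1 were the chromatin remodeller Chd3 and Wdr54, each at a distance of 0.04, and the calcineurin-dependent factor Nfatc4 at 0.05. Nearest to Pdk3 were Chpt1, an enzyme of phosphatidylcholine synthesis, the thioredoxin reductase Txnrd3 and the matrix protein Ogn, at 0.04 each. Nearest to Idh2 were the kinase Oxsr1 at 0.06, and the collagen prolyl hydroxylase subunit P4ha1 and Rgp1 at 0.08 each. P4ha1 shared the low value on Gata4 siRNA array 2, with 490.9, 323.3 and 454.5 on the Gata4 siRNA arrays, against 705.1, 660.1 and 647.6 on the NT arrays. It was chosen for its likeness to Idh2 over these same arrays, so the shared low value follows from the choice.

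The nearest companions of the higher genes lay farther away. The distance is not scaled to the size of a gene's difference or to its spread between arrays. A larger distance is therefore not read as a pattern particular to these genes. Nearest to Pdk4 were the anthrax toxin receptor Antxr2 at a distance of 0.17, Gm5886 at 0.19 and the histone gene Hist1h2bk at 0.20. Nearest to Ppargc1a were the immunity-related GTPase Irgm2 at 0.10, cyclin F, Ccnf, at 0.12 and C530044C16Rik at 0.12. Irgm2 was dim, at 64.0, 45.7 and 71.2 on the Gata4 siRNA arrays, against 10.8, 25.6 and 24.0 on the NT arrays, and lay below the noise floor on NT array 1. Among the 5 genes themselves, Pdk1, Pdk3 and Idh2 lay 0.17 to 0.18 apart and Pdk4 lay 0.34 from Ppargc1a.

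**Figure D4:**
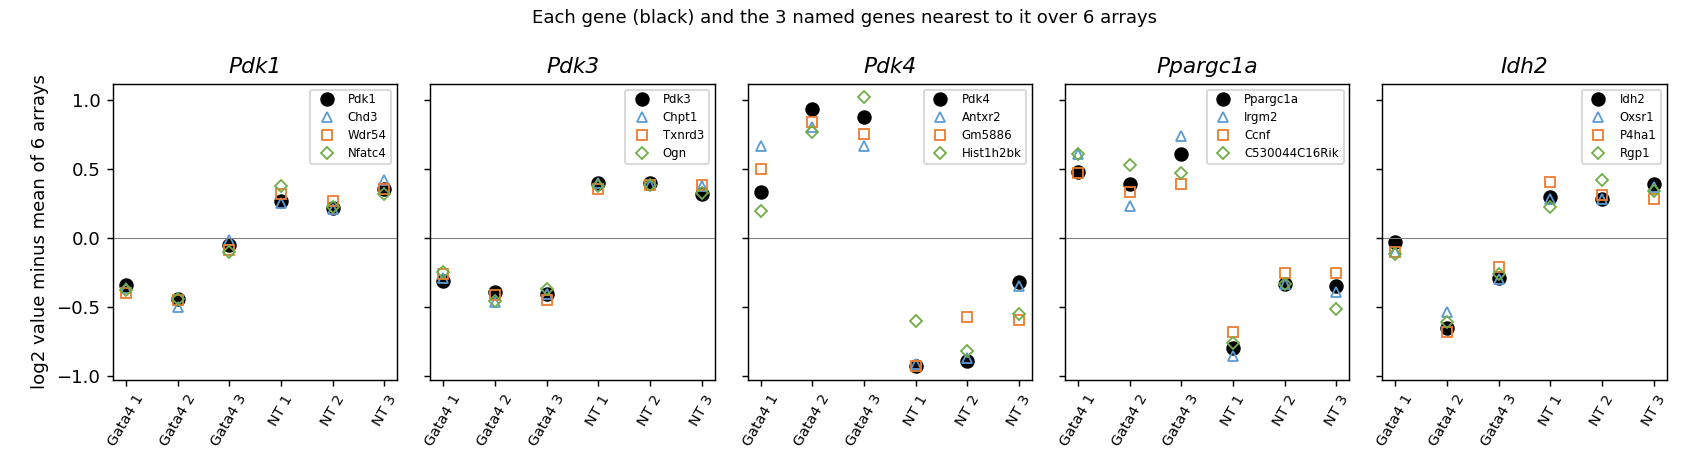
log2 value minus the mean of 6 arrays, for each of the 5 genes (black) and the 3 named genes nearest to it (coloured open symbols), on Gata4 siRNA arrays 1 to 3 and NT arrays 1 to 3. The companions of Pdk3 lie on top of it, at a distance of 0.04, and those of Pdk4 scatter around it, at 0.17 to 0.20.

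The directions of the 5 genes held in every setting tried, which was nearly fixed in advance because the groups of each gene did not overlap. Their calls did not hold in every setting. Of 15 other fits, Pdk3, Pdk4 and Ppargc1a passed an adjusted p under 0.05 in 14 each, Pdk1 in 7 and Idh2 in 6. These fits reuse the arrays from which the authors' calls chose the genes, so the passes are no independent support. Pdk3 and Pdk4 did not pass without Gata4 siRNA array 2 (-0.73 and 1.31), and Ppargc1a did not pass without Gata4 siRNA array 1 (0.99). Pdk1 did not pass without Gata4 siRNA array 1 or 2 (-0.53 and -0.48) or without NT array 1, 2 or 3 (-0.57, -0.59 and -0.52), and Idh2 did not pass whichever of the 6 arrays was left out (-0.79 to -0.48).

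**Figure D5:**
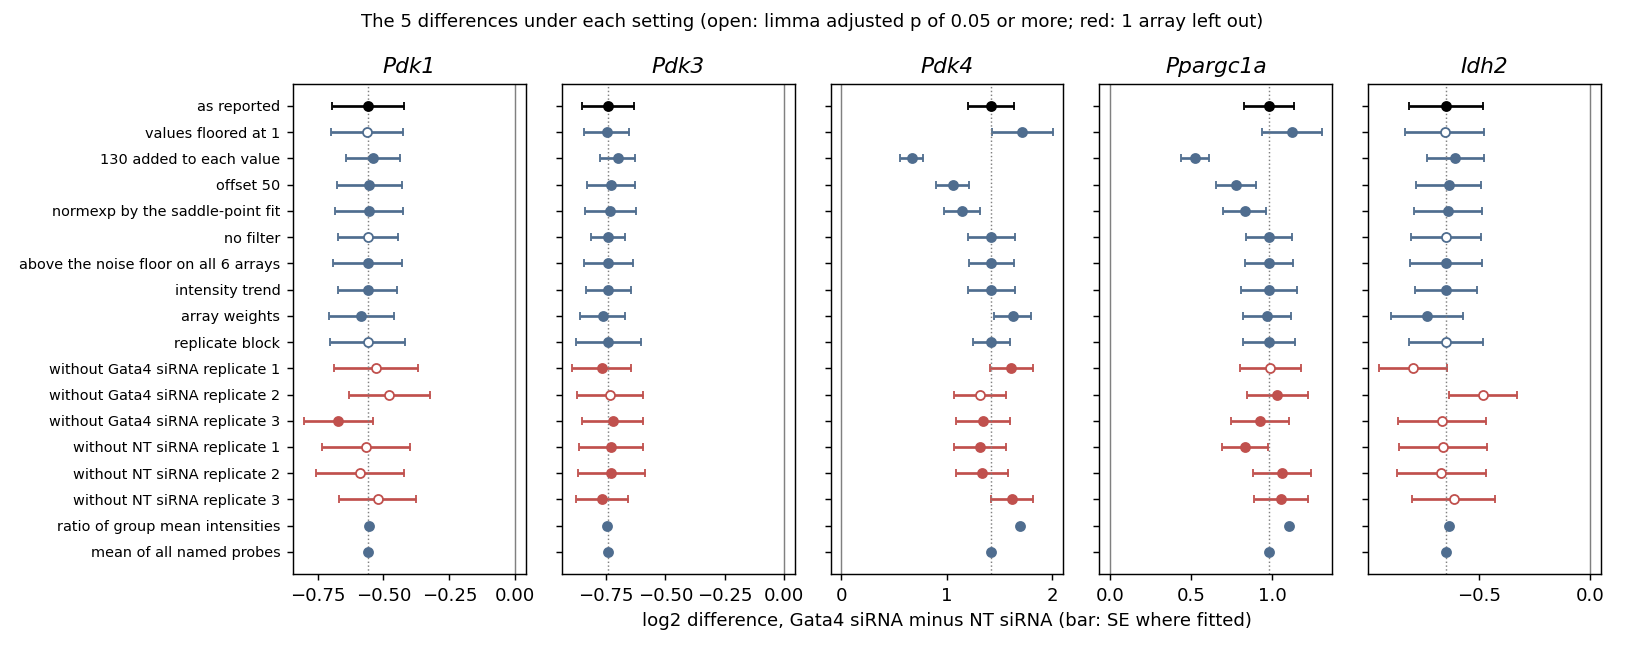
log2 difference of each of the 5 genes (Gata4 siRNA minus NT siRNA, bars SE where fitted) as reported (black), under other settings (blue) and with 1 array left out (red); open points have a limma adjusted p of 0.05 or more. All points of a gene lie on one side of 0, and Pdk4 ranges from 0.67 with 130 added to each value to 1.71 with values floored at 1.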

How the data were processed

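The titles of the 6 samples gave the groups and the replicate numbers, since the design text numbers the controls in a way that conflicts with 3 samples per group. The deposited value table holds 1 linear intensity per probe and array. Per the submitters' processing notes, GenomeStudio was used; no settings are given. Of the deposited intensity values 37.1% are negative and all arrays have almost the same distribution, as after background subtraction and quantile normalization. Another 18 per-array columns could not be tied to a sample by name and stayed out. Of 2415 probes in the authors' deposited table, 2367 were named. Names came from the symbol and gene number with RefSeq (GRCm38.p6), except for 195 probes whose gene number had no match there. Those kept the authors' symbol. The authors' fold changes and p-values were not used.

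Intensities were modelled by normexp (background mean 0, SD 9.40), 16 was added and log2 was taken. Probes above the floor on at least 3 of 6 arrays were fitted with lmFit and eBayes of limma 3.58.1 (R 4.3.3) in a two-sided test, and p-values were adjusted by Benjamini-Hochberg over 17740 probes at a threshold of 0.05. Every call comes from this fit unless another setting is named. A gene of the lists is left out of their counts and is not reported here. Named genes are the 5 genes, the 3 genes nearest to each, and up to 6 genes of a list, the brightest ones. The 5 genes, the lists and the settings were chosen with earlier results of these data known, and the promoter strings were chosen after the files were read. Alternatives changed how dim values and weak probes were handled, the scale, the probe rule, the variance model and the weights, added a replicate block, or left out an array. Figures were drawn with matplotlib 3.10.9.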

Additional observations from a re-analysis of the deposited data

How the results depend on the processing

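None of the 85 differences recomputed for the 5 genes changed sign, which was nearly fixed in advance because the groups of each gene did not overlap. Settings that changed only the filter, the variance model or the block left the difference as it was by construction. With these included, 81 moved by less than 1 SD between replicates. The other 4 concern the dim genes: with 130 added to each value the log2 difference was 0.67 for Pdk4 and 0.53 for Ppargc1a, and with an offset of 50 it was 1.06 and 0.78, since an added constant compresses differences of dim probes. Without 1 array it was 1.31 to 1.62 for Pdk4, 0.83 to 1.06 for Ppargc1a, -0.77 to -0.72 for Pdk3, -0.67 to -0.48 for Pdk1 and -0.79 to -0.48 for Idh2. The number of the 5 genes called was 3 in place of 5 with values floored at 1, with no filter and with a replicate block, where Pdk1 and Idh2 did not pass, and 1 to 4 without 1 array. Over all probes the count of 1558 became 734 with values floored at 1, 2518 with 130 added, 2377 with an intensity trend, 3079 with array weights and 736 with the replicate block. It was 257 to 1602 without 1 array: 372, 257 and 1052 without Gata4 siRNA array 1, 2 or 3, and 487, 723 and 1602 without NT array 1, 2 or 3. The cause was not tested. Same-numbered arrays did not deviate together from their group means (r across probes of -0.055, -0.088 and -0.011 for numbers 1, 2 and 3). Each Gata4 siRNA array correlated best with an NT array of another number. With 3 arrays in a group these weak correlations cannot exclude a shared culture or day, so whether same-numbered samples were paired was not settled. Signal over background limits Pdk4 and Ppargc1a, whose lowest values were 2.18 and 3.58 times the noise floor. Each gene has 1 named probe, so the probe rule changed nothing.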
